A study of Mus musculus with 27 samples.

Results

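The cytosolic ribosomal protein genes were followed through acute activation, 21 days of activation and withdrawal of MycER in mouse pancreatic islets. A gene was included when a probe set had 1 gene symbol in the platform annotation and that symbol was Rpl or Rps with a number, or was Rplp0, Rplp1, Rplp2 or Rpsa, with mitochondrial ribosomal proteins and the Rps6 kinases left out. The rule found 33 genes of the 8251 with a probe set of 1 symbol, 17 of the small subunit and 16 of the large subunit. They were measured by 47 of 12422 probe sets, and each gene was represented by its probe set of highest mean signal across the 27 arrays. Another 38 probe sets carried several symbols that included a ribosomal protein and named no gene here. Among the genes without a probe set of 1 symbol were Rps6, Rplp1, Rplp2, Rpl3, Rpl5, Rpl11 and Rpl23.

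The series holds 27 arrays of islets taken by laser capture, in 9 groups of 3 arrays, from mice that all carried MycER and BclXL transgenes driven by an insulin promoter. MycER is a Myc protein fused to a modified estrogen receptor that becomes active when 4-hydroxytamoxifen (4OHT) is given, and BclXL blocks cell death. Untreated mice were the controls, 4 groups were taken 2, 4, 8 or 24 h after a single injection of 4OHT, and 1 group was taken after 21 days of daily injection; sample titles call the daily agent 4OHT and the treatment text calls it tamoxifen. The last 3 groups were taken 2, 4 or 6 days after the end of such a 21-day course, and are called 2, 4 and 6 days off. No group was injected without the drug or lacked MycER, so an effect of the drug or of injection cannot be told apart from one of MycER. The labels number the samples of a group and do not say that they are separate mice, so each p-value is set against the spread of these samples alone, which may be technical. The age and strain of the mice were not given in the sources used here.

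Each eukaryotic ribosome is built from ribosomal RNA and many ribosomal proteins, and its subunits are assembled in the nucleolus before they join on an mRNA. Myc is known for driving ribosomal RNA synthesis and ribosome biogenesis. Many ribosomal protein mRNAs begin with a C followed by a run of pyrimidines, the 5′ terminal oligopyrimidine (TOP) tract, through which their translation is controlled, so that protein output can change without a change in mRNA. The arrays measured mRNA only.

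Promoter windows show what these genes share in sequence apart from the naming rule. RefSeq windows (GRCm38.p6, from 250 bases before to 50 bases after an annotated start) matched 26 of the 33 genes, with 35 windows among them. The 6 stretches that follow run from 50 bases before to 30 bases after the start and belong to genes that rose or fell in a comparison and had 1 window. They are written 5′ to 3′ on the gene's own strand, and capitals mark runs of at least 7 pyrimidines.
Rpl13a, chr7:45128716-45128795, minus strand: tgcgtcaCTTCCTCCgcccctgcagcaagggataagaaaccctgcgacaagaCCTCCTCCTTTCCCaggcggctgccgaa
Rpl7a, chr2:26910757-26910836, plus strand: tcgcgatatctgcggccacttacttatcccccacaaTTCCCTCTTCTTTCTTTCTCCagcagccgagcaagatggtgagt
Rps7, chr12:28635924-28636003, minus strand: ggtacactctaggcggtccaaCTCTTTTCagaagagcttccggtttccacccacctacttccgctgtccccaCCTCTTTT
Rps10, chr17:27635215-27635294, minus strand: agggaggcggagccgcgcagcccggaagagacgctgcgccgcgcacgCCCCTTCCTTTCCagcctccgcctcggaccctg
Rpsa, chr9:120127716-120127795, plus strand: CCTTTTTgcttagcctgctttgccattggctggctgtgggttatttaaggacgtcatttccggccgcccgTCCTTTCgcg
Rps3, chr7:99483680-99483759, minus strand: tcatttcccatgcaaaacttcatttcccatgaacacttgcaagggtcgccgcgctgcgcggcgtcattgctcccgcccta
Such a run was present in 5 of these 6 windows and absent from that of Rps3. It was also present in the window of Rps15, which met the same conditions and is not shown. In the searched region from 50 bases before to 30 after the start, a run of at least 7 pyrimidines was present in 24 of the 35 member windows, 68.6%, against 43.3% of all 32851 windows. A C at the annotated start with 4 or more pyrimidines after it was present in 5 of 35 windows, 14.3%, against 2.51% of all, in Rpl35a, Rpl38, Rps10, Rps18 and Rps27. The motif CCGGAAG, the core bound by ETS factors, was found on either strand of the 300-base windows in 11 of 35, 31.4%, against 8.86% of all. CACGTG, the E-box bound by Myc with its partner Max, was found in 4 windows, 11.4%, of Rpl13a, Rpl19 and Rps19, against 7.15% of all windows. These matches describe letters in the windows and not binding.

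The labelled tissue was borne out by its markers. Ins2 had a mean log2 signal of 13.82 in untreated islets, and the mean of 16 beta cell markers was 10.20 there. Acinar cells, the enzyme-secreting cells around the islets, also contributed, with a mean over 19 acinar markers of 7.83 to 10.42 in the untreated arrays, 10.98 to 11.56 at 24 h and 7.12 to 7.64 at 21 days. The mean over 43 leukocyte markers ran from 6.87 to 8.58, and 4 arrays stood over 0.5 above the mean of all arrays: 2 h replicate 1, 8 h replicate 3, 2 days off replicate 2 and 6 days off replicate 1. The excess of the 3′ over the 5′ Gapdh probe sets, a measure of shortened RNA that can also rise with the double linear amplification used here, was 4.77 to 4.92 at 21 days, 3.70 to 3.90 at 24 h and 3.65 to 5.67 in untreated arrays. The same excess for actin was 2.12 to 2.79 at 21 days, 2.54 to 2.97 at 24 h and 2.10 to 2.37 in untreated arrays. These measures did not rank the groups alike. The mean of 22 markers of dividing cells was 6.72 in untreated islets, 8.15 at 24 h and 7.35 at 21 days. In these bulk samples fewer cells of a type and less RNA per cell cannot be told apart.

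Ribosomal protein probe sets were among the brightest on the arrays. Means over the 27 arrays ran from 4.62 for Rps15 to 14.05 for Rpl41 on the log2 scale, with the highest single value in the table at 14.47, and 19 of the 33 genes lay above 10 and above the 90th percentile of all probe sets. At the other end 7 genes, Rpl32, Rpl38, Rpl39, Rpl39l, Rps14, Rps15 and Rps20, had means of 4.62 to 5.98, under the 7.14 of the highest of 15 control probe sets for bacterial genes, whose other means ran from 3.58 to 5.68. The labels do not say whether bacterial RNA was added to the samples. Rps14 (4.93) and Rps20 (5.07), both of the small subunit, were in this group, and the genes just above the controls were Rpl35a at 7.25 and Rps27l at 7.27. A probe set's brightness is a property of the probes as well as of the mRNA, so these levels rank no gene against another. The division into 26 genes above the controls and 7 at or below them was made after the values were seen.

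The mean of all 33 genes on an array ran from 9.71, in 8 h replicate 1, to 10.11, in 24 h replicate 3. Group means of this value ran from 9.85 ± 0.14 (SD, n = 3) at 8 h to 10.02 ± 0.11 at 24 h, against 9.92 ± 0.06 in untreated islets and 9.96 ± 0.09 at 21 days. Every group's range of arrays overlapped that of the untreated group. The arrays were normalised to a like distribution, with medians of 6.91 to 7.01, so a change shared by most mRNAs would not appear as a change here.

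Within groups the values of the brightest members tended to vary together. After the group means were subtracted, the median correlation over the 325 pairs of the 26 genes above the bacterial controls was 0.32, and 70.8% of the pairs were above 0. The median over the 171 pairs of the 19 genes above 10 was 0.48, and 91.8% of the pairs were above 0, over 27 arrays with 18 residual degrees of freedom. Over all pairs among the 720 probe sets above 10 the median was 0.09 and 59.5% were above 0. The 7 genes at or below the controls had a median of 0.08 among themselves. The median between them and the 26 brighter genes was -0.004. Genes on 1 array share its RNA, amplification and normalisation, and no test was made of these values.

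The first comparisons asked whether a single dose of 4OHT changed ribosomal protein mRNA within 8 h. No member rose or fell. At 2 h 0 of 33 members passed an adjusted p of 0.05 by limma, against 0.394% of all probe sets. An unadjusted p under 0.05 was found for 2 members, against 11.7% of all probe sets. At 4 h 0 of 33 passed, against 0.797% of all, with 0 at an unadjusted p under 0.05, against 8.34%. At 8 h 0 of 33 passed, against 1.7% of all, with 2 at an unadjusted p under 0.05, against 15.9%. With so few probe sets called in all, a count of 0 among 33 does not set the members apart.

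The sizes of the early changes were bounded. Unless another is named, the values that follow are from the brightest probe set of each member. The median member change was -0.02 at 2 h, -0.04 at 4 h and -0.06 at 8 h on the log2 scale, beside medians of -0.07, -0.02 and -0.06 over all probe sets. At each of the 3 times the 95% interval of every member lay within 1 log2 unit of 0, and for 25 or 26 members it lay within 0.5. The largest change was that of Rps7, a small-subunit protein, at 2 h: 0.44 ± 0.19 (SE), 1.36-fold, adjusted p = 0.379 by limma with 3 arrays per group. Its interval ended at 0.84, a 1.79-fold difference, which was the highest bound of any member at 2, 4 or 8 h. Rps27l, the paralogue of Rps27 that p53 is known to induce, had the lowest early values, -0.30 ± 0.18 at 2 h and -0.36 ± 0.18 at 8 h, neither of which passed. Rpl19 of the large subunit was lowest at 4 h with -0.23 ± 0.24. The other extremes were as small. At 2 h Rpl7a had 0.28 and Rpl37a 0.21, and Rps15 had -0.26 and Rps13 -0.22. At 4 h Rpl32 had 0.30, Rpl37a 0.27 and Rpl38 0.20, and Rpl41 had -0.20 and Rps10 -0.18. At 8 h Rpl8 and Rps19 had 0.15 and Rpsa 0.12, and Rps13, of the small subunit, had -0.34 and Rpl19 -0.28. Second probe sets of Rps28 went further, with 0.64 ± 0.27 for 100758_at at 2 h and -0.44 ± 0.15 for 98086_r_at at 8 h. The interval of the former was 0.07 to 1.21. Rps4x had -0.39 ± 0.19 with 162498_r_at at 8 h. None of these differences passed the test.

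Rplp0 and Rps19 are 2 members of known importance. Rplp0, the base of the stalk that recruits translation factors, was at 13.07, 13.31 and 13.20 in the untreated arrays. It was at 13.36, 13.21 and 13.26 at 2 h, 13.03, 13.06 and 13.17 at 4 h, and 12.95, 13.26 and 13.23 at 8 h. The groups overlapped at every one of these times. Rps19, whose loss causes Diamond-Blackfan anaemia, differed from untreated by 0.05 at 2 h, -0.04 at 4 h and 0.15 at 8 h, with no adjusted p under 0.523 by limma.

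**Figure D1:**
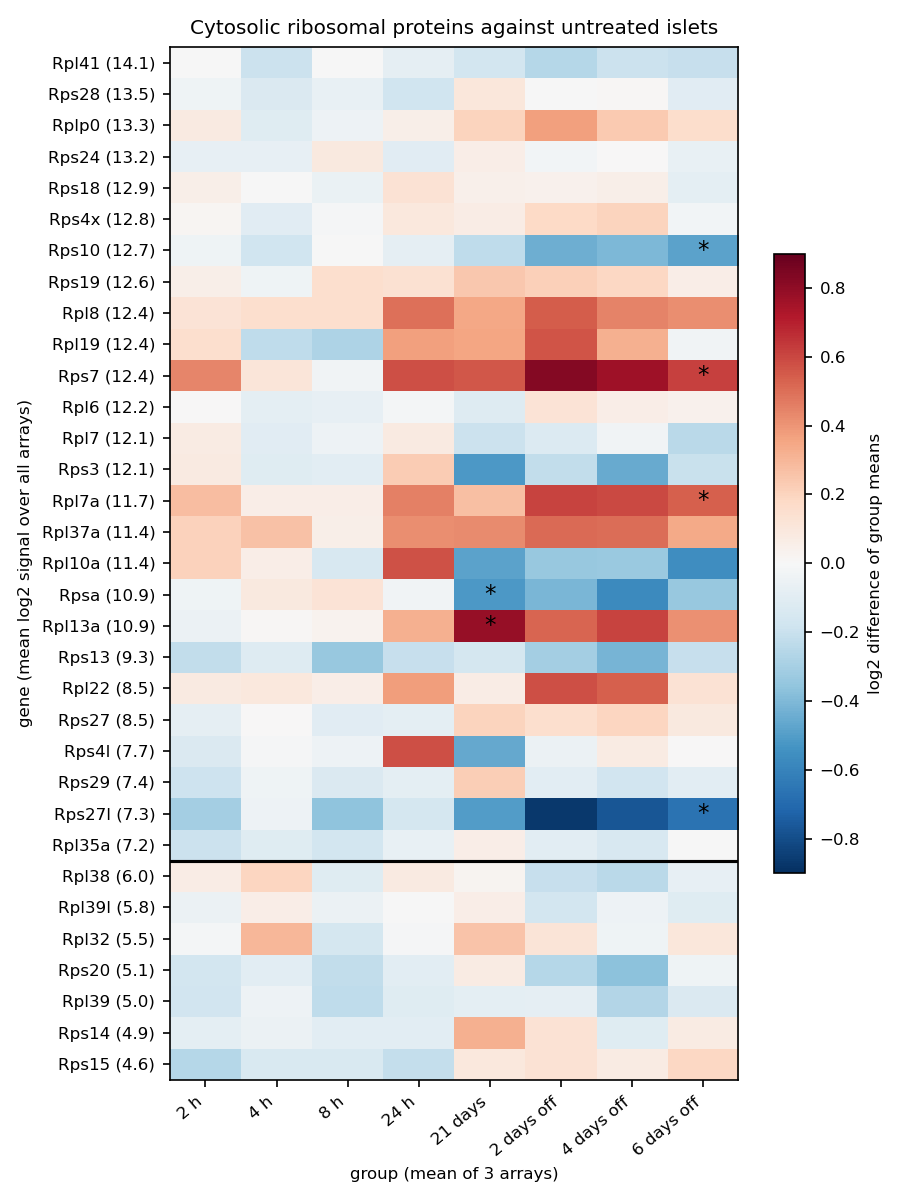
Difference of each group mean from the untreated mean (log2, colour) for the 33 genes, ordered by mean signal, with the line separating the 7 genes at or below the bacterial controls. Asterisks mark the 6 changes from untreated that passed the test, all of them at 21 days or 6 days off; the columns of 2 and 4 days off were not tested against untreated.

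Some genes that build the ribosome moved in the same arrays. Of 76 ribosome biogenesis genes measured, 5 rose and 0 fell at 2 h, with a median change of 0.34, and the rest were not called. At 4 h 6 rose (median 0.32) and at 8 h 6 rose (median 0.39). Over all probe sets 0.394% were called at 2 h, 0.797% at 4 h and 1.7% at 8 h, in either direction. Nhp2, a protein of the snoRNA particles that modify ribosomal RNA, rose by 1.39 ± 0.24 at 4 h, and Bop1, which is needed to mature the large subunit, rose by 0.87 ± 0.14 at 8 h. The spread of single genes around these medians is plotted with that of the members. The difference between the lists was not tested. The acinar markers had a median change of 1.45 at 2 h, 1.07 at 4 h and 0.87 at 8 h with 0 of 19 called, and the leukocyte markers 0.42 at 2 h with 0 of 43 called. Their part in these values was not tested.

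**Figure D2:**
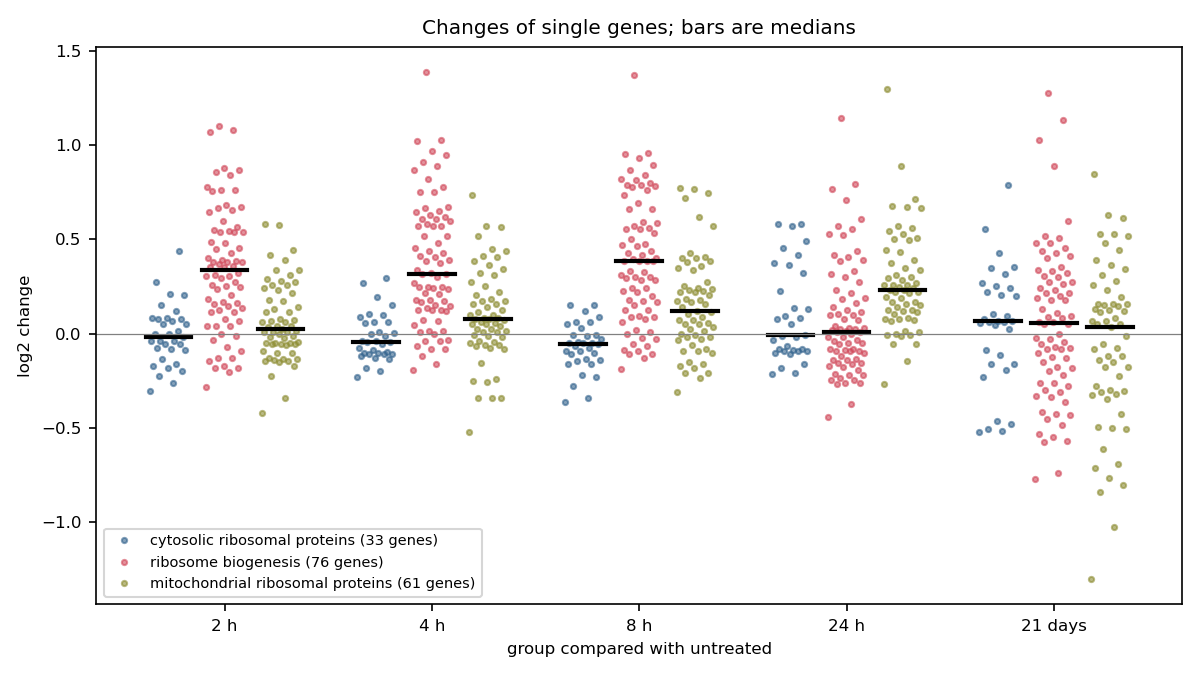
Log2 change from untreated of each gene (points) in 3 lists at 2, 4, 8 and 24 h and 21 days, with the median of each list as a bar. Cytosolic ribosomal proteins lay around 0 at 2, 4 and 8 h, where the medians of the ribosome biogenesis genes were 0.34, 0.32 and 0.39.

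At 24 h the members spread further and none was called. By limma 0 of 33 passed, against 1.38% of all probe sets. At an unadjusted p under 0.05 there were 6 of 33, against 11.8% of all probe sets, and 5 of the 6 were higher. The median was -0.01 beside -0.04 over all probe sets, with 10 of 16 large-subunit genes and 6 of 17 small-subunit genes above 0. Rpl8, a protein at the peptidyl transferase centre, had 12.36, 12.62 and 12.90 at 24 h against 11.90, 12.31 and 12.19 in untreated arrays. The groups did not overlap, and the difference was 0.49 ± 0.16 (adjusted p = 0.165 by limma). The largest differences were 0.58 ± 0.25 for Rps4l, 0.58 ± 0.19 for Rps7 and 0.57 ± 0.21 for Rpl10a, with adjusted p of 0.351, 0.184 and 0.251 by limma. The lowest were -0.21 for Rps15 and Rps13 and -0.18 for Rps28, and none passed. These values are from the brightest probe sets. By its other probe sets Rps28 had 0.62 ± 0.27 with 100758_at (adjusted p = 0.366 by limma) and -0.21 with 98086_r_at. Rps4l had -0.09 with 98148_at, and Rpl10a -0.07 with 161327_f_at. None of these passed either.

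Against 8 h the same arrays gave 0 of 33 called, beside 1.8% of all probe sets. At an unadjusted p under 0.05 there were 6 members of 33, all higher, against 14.3% of all probe sets. The median change was 0.13 beside 0.02 over all probe sets, and 15 of the 16 large-subunit genes were above 0. Rpl10a had the largest difference, 0.72 ± 0.21, with an adjusted p of 0.0941 by limma, followed by Rpl19 with 0.65 and Rps4l with 0.63. The lowest were Rps24 with -0.19, Rpsa with -0.15 and Rps28 with -0.11. In the same comparison 7 of the 76 ribosome biogenesis genes fell, 0 rose, and the median was -0.24. The dividing-cell markers moved here too, with 10 of 22 higher and a median of 1.12. Their part in the member values was not tested.

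After 21 days of treatment 2 of 33 members, 6.06%, differed from untreated islets, against 14.6% of all probe sets. At an unadjusted p under 0.05 there were 9 members of 33, against 28.7% of all probe sets, so the members did not stand apart by this count. The median change was 0.07 beside 0.04 over all probe sets. The intervals of 18 members lay within 0.5 and those of 32 within 1 log2 unit of 0.

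Rpl13a, a protein of the large subunit, was the member that rose. Its log2 signal was 11.31, 11.25 and 11.57 at 21 days and 10.49, 10.43 and 10.85 in untreated islets. All 21-day arrays were above all untreated arrays, and the means of 11.38 ± 0.17 and 10.59 ± 0.23 (SD, n = 3) differed by 0.79 ± 0.21, 1.73-fold, with an adjusted p of 0.0162 by limma. At 2 and 4 days off its means were 11.11 and 11.20, and at 6 days off the arrays were at 10.63, 11.20 and 11.18. The adjusted p rose above 0.05 when untreated replicate 1, untreated replicate 2 or 21 days replicate 3 was left out, to at most 0.0664 by limma.

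Rpsa was the member that fell. It is a small-subunit protein on the outer face of the ribosome that is also known as the laminin receptor. It had 10.65, 10.31 and 10.87 at 21 days against 11.30, 11.01 and 11.08 in untreated islets. The groups did not overlap, and the change was -0.52 ± 0.17, with an adjusted p of 0.0445 by limma. The call was lost when any of the 3 untreated arrays or 21 days replicate 1 or 2 was left out, with adjusted p up to 0.225 by limma.

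Other members came close without passing. Rps7 differed by 0.56 ± 0.19 (adjusted p = 0.0578 by limma), Rps27l by -0.50 ± 0.18 (adjusted p = 0.0612 by limma) and Rps3, which lines the channel where mRNA enters the small subunit, by -0.52 ± 0.20 (adjusted p = 0.0797 by limma). Rpl37a differed by 0.43, Rplp0 by 0.20 and Rps19 by 0.24, and none of these passed. The acinar marker median was -1.75 with 0 of 19 called, and 3 of 22 dividing-cell markers were higher. Beta cell marker means were 9.58 to 9.79 at 21 days, against 9.92 to 10.40 in untreated arrays. The largest called changes among them were Abcc8 with -1.88, Ero1b with -1.74 and Slc2a2 with -1.63. Endothelial marker means were 7.69 to 7.78, against 7.82 to 8.29. Of these markers Tie1 and Emcn were called lower and Pecam1 higher. Their part in the member values was not tested.

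The step from 24 h to 21 days held the most calls. Of 33 members 6 passed, 18.2%, against 20.8% of all probe sets: 4 fell and 2 rose. The median was -0.01 beside 0.07 over all probe sets. The 4 that fell were among the 26 genes above the bacterial controls, and the 2 that rose, Rps14 and Rps15, were among the 7 at or below them. Median changes of these classes were -0.06 and 0.17.

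Rpl10a (chr17:28328471-28331033, GRCm38.p6), which forms the mobile L1 stalk of the large subunit next to the exit site for transfer RNA, fell by the largest amount. It had 11.97, 12.05 and 12.11 at 24 h and 10.98, 10.49 and 11.50 at 21 days. The 24 h arrays were close together and all above the 21-day arrays, which were more widely spread. The change was -1.05 ± 0.21, 2.07-fold lower, with an adjusted p of 0.00191 by limma. Leaving out any 1 of these 6 arrays did not end the call. The second Rpl10a probe set, 161327_f_at, had a change of 0.10 in the same comparison.

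Rps3 had 12.10, 12.50 and 12.71 at 24 h and 11.68, 11.61 and 11.79 at 21 days. These did not overlap, and the change was -0.74 ± 0.20, with an adjusted p of 0.0103 by limma. Without 24 h replicate 3, the highest array, its change was -0.61 with an adjusted p of 0.0679 by limma, and the 6 calls of this comparison became 1, that of Rpl10a. Rpsa had 10.83, 11.15 and 11.31 at 24 h. This range overlapped the 21-day arrays, and its change of -0.49 ± 0.17 had an adjusted p of 0.0470 by limma. That call was kept in 2 of the 6 fits that omitted an array.

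Rps4l, the autosomal paralogue of the X-linked Rps4x, had 7.99, 8.14 and 8.85 at 24 h and 7.21, 7.07 and 7.56 at 21 days. The groups did not overlap, with 24 h replicate 3 the highest of all 27 arrays, and the change was -1.05 ± 0.25 (adjusted p = 0.00574 by limma). This value came from 98149_s_at, whose suffix marks probes shared with other transcripts. The other Rps4l probe set, 98148_at, went the other way with a difference of 0.37. Rps4x by its brightest probe set had no called change in any comparison, and its largest was 0.13 in size. Another Rps4x probe set, 162229_at, fell by 0.38 ± 0.11 from 24 h to 21 days (adjusted p = 0.0206 by limma).

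Rps14, a protein of the small-subunit platform, had 4.79, 4.84 and 4.84 at 24 h and 5.21, 5.44 and 5.05 at 21 days. Those arrays did not overlap, and the change was 0.41 ± 0.12 (adjusted p = 0.0196 by limma). Rps15, on the head of the small subunit, had 4.47, 4.43 and 4.42 at 24 h and 4.71, 4.83 and 4.70 at 21 days, without overlap, and rose by 0.31 ± 0.09 (adjusted p = 0.0219 by limma). The calls of Rps14 and Rps15 were each kept in 3 of the 6 fits that omitted an array, and that of Rps15 was also lost with quantile normalisation, on the 6 arrays alone and with either set of covariates, with adjusted p up to 0.113 by limma. Both probe sets lay within the range of the bacterial controls, so the size of a change in mRNA cannot be read from them. The mean of the bacterial controls was 4.40 ± 0.03 (SD, n = 3) at 24 h and 4.52 ± 0.09 at 21 days. Rpl13a with 0.46 and Rps29 with 0.31 were the other large positive differences, and neither passed.

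Acinar content differed more between these groups than in any other comparison made. Of 19 acinar markers 16 were lower at 21 days than at 24 h, with a median of -4.39, and 7 of 22 dividing-cell markers were lower. With the acinar and leukocyte marker means as covariates in the fit, 0 of 33 members passed in this comparison, and Rpl10a had an adjusted p of 0.0514 by limma. Marker content and treatment group cannot be told apart in this comparison, since no 21-day array reached the acinar level of a 24 h array.

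Other lists of the translation machinery were counted in the same step, in which 20.8% of all probe sets were called and their median was 0.07. Among 19 other genes whose mRNAs carry a TOP tract 7 fell and 0 rose, 36.8%, with a median of -0.22. Eif3l, a subunit of the initiation factor that binds the small subunit, fell by 1.25 ± 0.11, and Eef1d, part of the complex that reloads the elongation factor, fell by 1.21 ± 0.15. Among 61 mitochondrial ribosomal proteins 20 fell and 1 rose, 34.4%, with a median of -0.23, and Mrpl23 fell by 1.49 ± 0.23. Ribosome biogenesis genes went both ways, with 7 higher and 13 lower, 26.3%. Most genes of each list were not called.

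**Figure D3:**
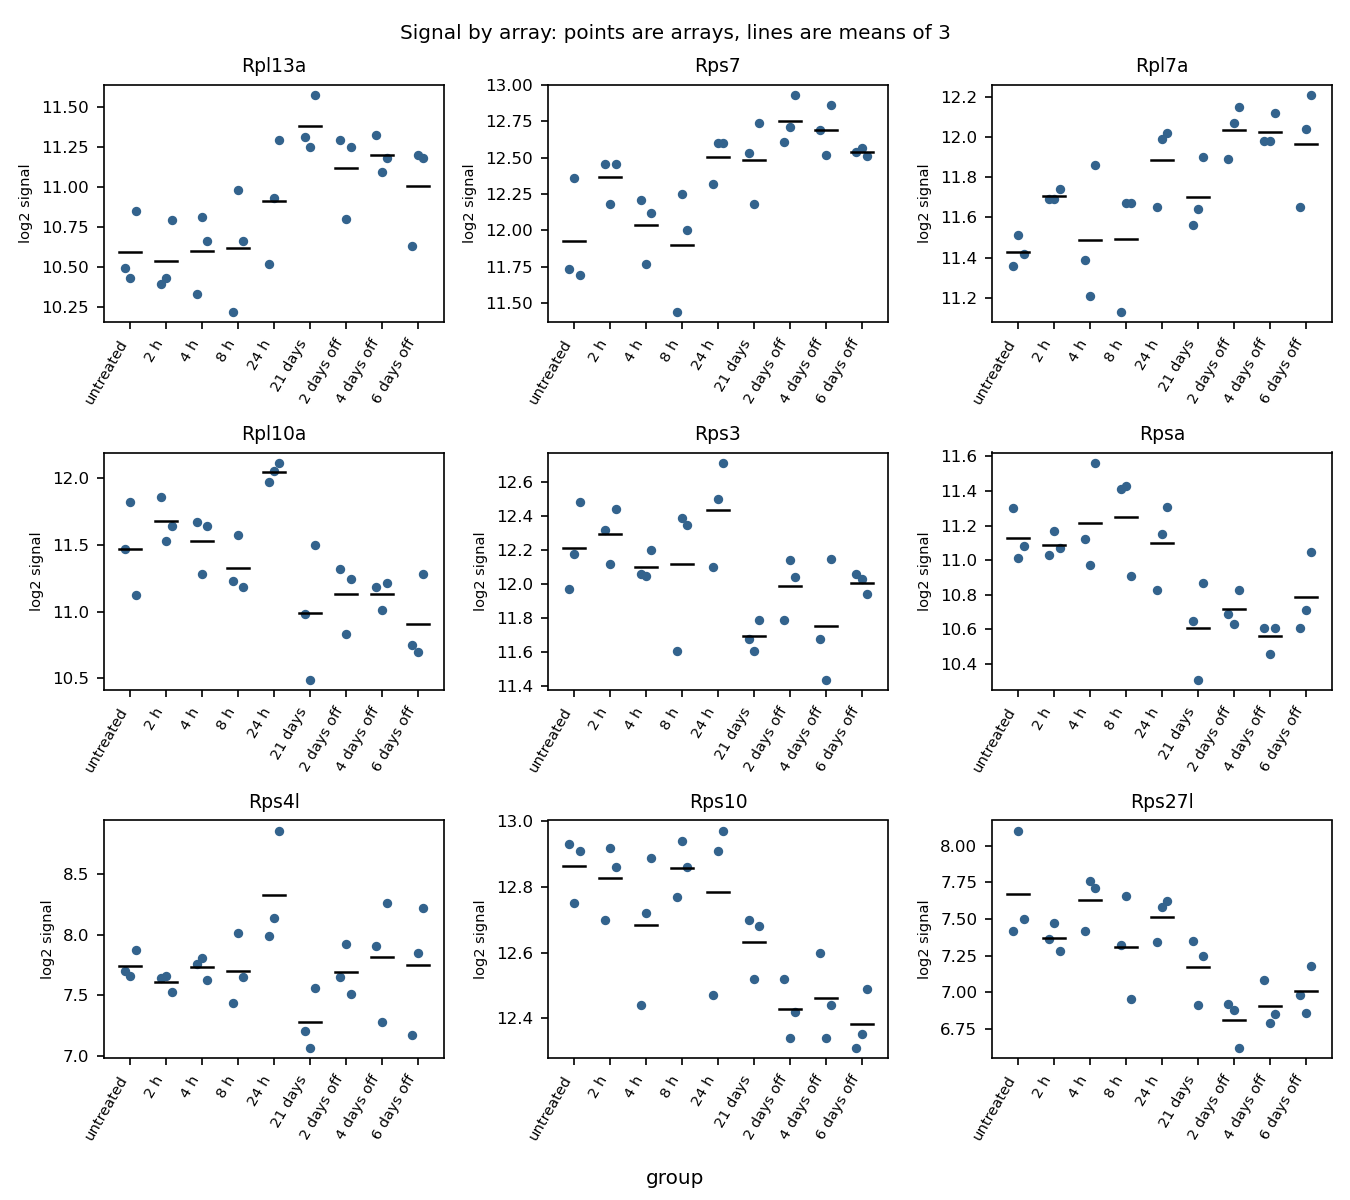
Log2 signal of 9 genes that are above the bacterial controls, on each of the 27 arrays (points) with group means (lines), each gene on its own axis that does not start at 0. Rpl10a was highest at 24 h, Rpl13a rose at 21 days, and Rps10 and Rps27l were lowest in the groups taken after withdrawal.

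Withdrawal was compared with 21 days of treatment at each of 3 times. At 2 days off 0 of 33 members passed by limma, against 0.153% of all probe sets. An unadjusted p under 0.05 was found for 3 of them, against 16.1% of all probe sets. The median was -0.01 beside -0.07 over all probe sets. The largest difference was that of Rpl22, a large-subunit protein that binds RNA outside the ribosome as well, with 0.51 ± 0.18 and an adjusted p of 0.206 by limma. Rps4l had 0.41 and Rpl7a 0.34, and the lowest were Rps27l with -0.36, Rps20 with -0.34 and Rps29 with -0.32. At 6 days off 0 of 33 passed by limma, against 0.274% of all. An unadjusted p under 0.05 was found for 1 member, against 13.8% of all probe sets. The median change at 6 days off was -0.08 beside -0.04 over all probe sets. The extremes were Rps4l with 0.47, Rps3 with 0.32 and Rpl7a with 0.27, and Rpl19 with -0.39, Rpl13a with -0.37 and Rps29 with -0.31.

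At 4 days off 3 of 33 members, 9.09%, fell and 0 rose, against 6.01% of all probe sets called in either direction. Rps20, a protein of the small-subunit head, had 5.37, 5.34 and 5.13 at 21 days and 4.65, 4.90 and 4.96 at 4 days off, and fell by 0.44 ± 0.12 (adjusted p = 0.0399 by limma). Rps14 had 4.63, 4.94 and 4.86 at 4 days off and fell by 0.42 ± 0.12 (adjusted p = 0.0434 by limma). Rps29, a small zinc-binding protein of the small subunit, had 7.63, 7.75 and 7.56 at 21 days and 7.11, 7.28 and 7.37 at 4 days off, and fell by 0.39 ± 0.12 with an adjusted p of 0.04997 by limma, just under the threshold. The highest differences, none of which passed, were 0.54 for Rps4l, 0.47 for Rpl22 and 0.33 for Rpl7a.

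None of these 3 pairs of groups overlapped. Rps14 and Rps20 were among the genes at or below the bacterial controls, and Rps29, with a mean of 7.36, lay just above them. All 7 genes at or below the bacterial controls were lower at 4 days off, with a median of -0.27, while the 26 brighter genes had a median of 0.00, with 13 higher and 13 lower. The median was -0.03 over all members and -0.09 over all probe sets. Second probe sets of the members, which are dimmer by the rule that chose the first, had a median of -0.24, and 13 of 14 were lower. The mean of the bacterial controls was also lower, at 4.41 ± 0.07 (SD, n = 3) against 4.52 ± 0.09 at 21 days. The 3′ excess of Gapdh was 3.46 to 4.06 at 4 days off, under the 4.77 to 4.92 at 21 days. That of actin was 2.25 to 2.82 at 4 days off and 2.12 to 2.79 at 21 days. With the Gapdh excess as a covariate 1 member was called. With any of the 3 arrays of 4 days off left out, or 21 days replicate 1 or 2, 0 members were called. Quantile normalisation also left 0, and array medians subtracted left 1.

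**Figure D4:**
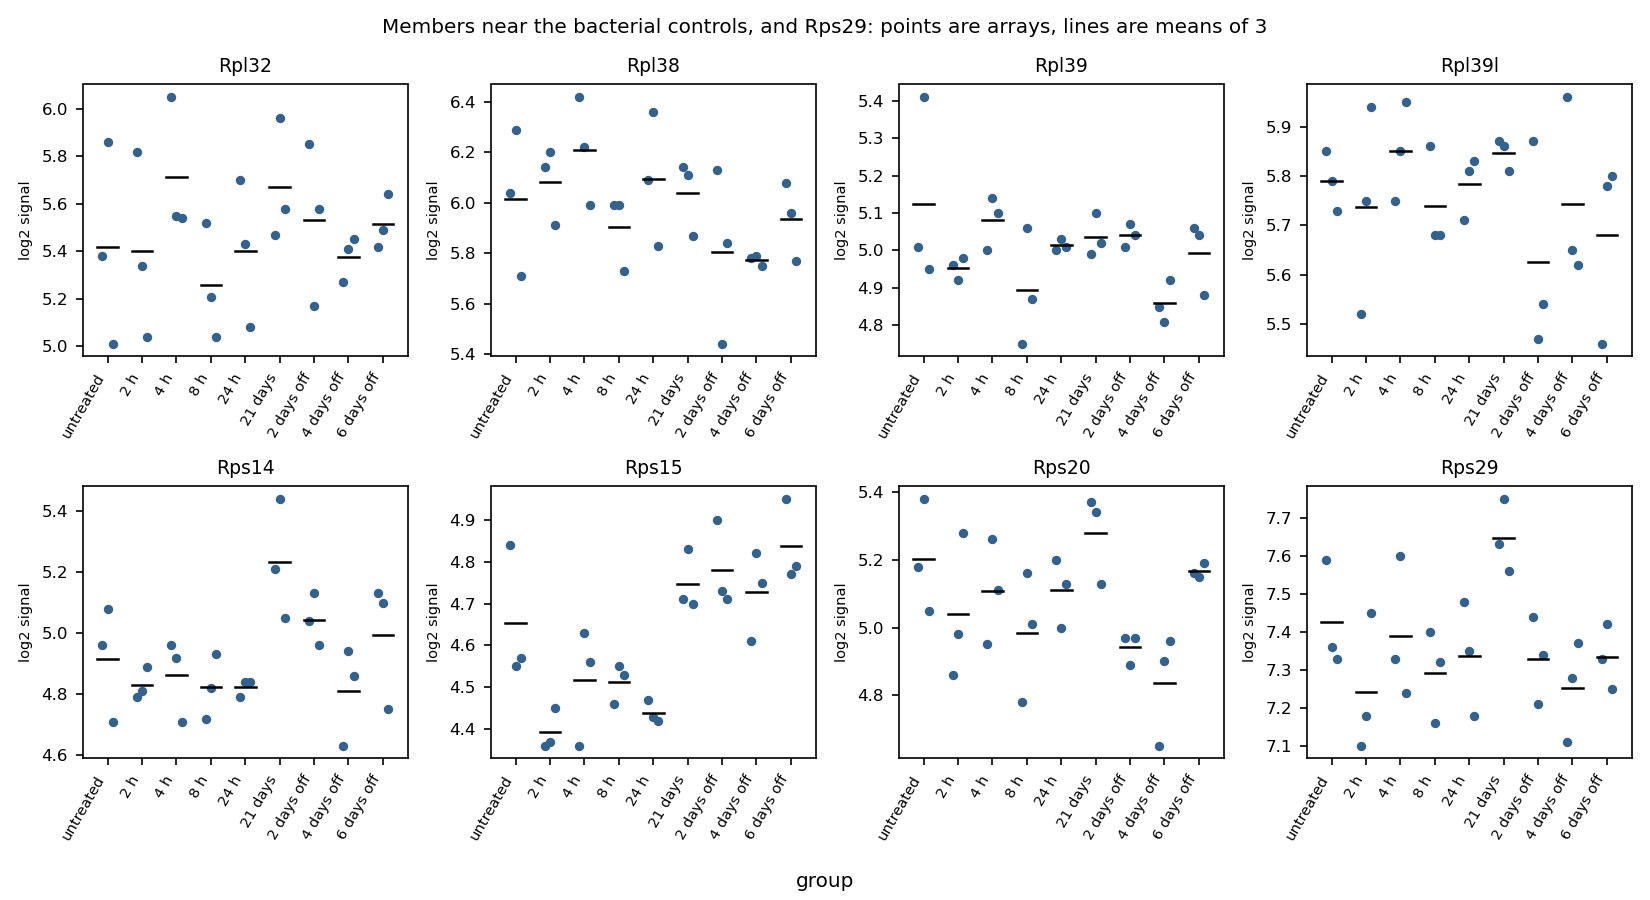
Log2 signal of the 7 genes at or below the bacterial controls and of Rps29, on each of the 27 arrays (points) with group means (lines), each on its own axis that does not start at 0. Rps14, Rps20 and Rps29 had their highest group means at 21 days, 5.23, 5.28 and 7.65.

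The return towards the untreated state was read by comparing 6 days off with untreated islets. Of 33 members 4, or 12.1%, differed, against 11.7% of all probe sets, a share near the background. The median was -0.03 beside 0.01 over all probe sets. Rps10, a small-subunit protein mutated in some patients with Diamond-Blackfan anaemia, fell: it had 12.93, 12.75 and 12.91 in untreated islets and 12.31, 12.35 and 12.49 at 6 days off. The groups did not overlap, and the change was -0.48 ± 0.12 (adjusted p = 0.0146 by limma). Its means at 21 days, 2 days off and 4 days off were 12.63, 12.43 and 12.46. The call of Rps10 was kept in 4 of the 6 fits that omitted an array. It was lost on the 6 arrays alone, with either set of covariates and without the leukocyte-rich arrays, with adjusted p up to 0.0904 by limma.

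Rps27l had 7.42, 8.10 and 7.50 in untreated islets and 6.98, 6.86 and 7.18 at 6 days off. All arrays of the later group were lower, and the gene fell by 0.67 ± 0.18 (adjusted p = 0.0176 by limma). Its related gene Rps27 had no called change in any comparison. The Rps27l probe set is of a type whose probes are less specific, and its mean of 7.27 lay just above the bacterial controls. Its call was kept in 4 of the 6 fits that omitted an array and lost on the 6 arrays alone. The adjusted p rose to at most 0.147 by limma.

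Rps7 and Rpl7a were the 2 that rose. Rps7 had 12.54, 12.57 and 12.51 at 6 days off and 11.73, 12.36 and 11.69 in untreated islets, without overlap, a rise of 0.61 ± 0.19 (adjusted p = 0.0432 by limma). Rpl7a, which sits near the tunnel exit of the large subunit, had 11.65, 12.04 and 12.21 at 6 days off and 11.36, 11.51 and 11.42 in untreated islets, without overlap, and rose by 0.54 ± 0.17 (adjusted p = 0.0389 by limma). Each of these calls was kept in 1 of the 6 fits that omitted an array. That of Rps7 was also lost with array medians subtracted, with quantile normalisation and with either set of covariates, with adjusted p up to 0.169 by limma, and that of Rpl7a with array medians subtracted and with the Gapdh covariate, up to 0.151. The 3′ excess of Gapdh was 3.58 to 4.45 at 6 days off. That of actin was 2.67 to 3.10 at 6 days off, above the 2.10 to 2.37 of untreated arrays. With the Gapdh excess as a covariate 1 of the 33 members was called in this comparison. Without the 4 leukocyte-rich arrays 2 were called. A fit on these 6 arrays alone called 0. Rpl10a with -0.56 and Rpl8 with 0.42 were the other extremes, and neither passed.

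Ribosomal RNA processing genes and mitochondrial ribosomal proteins also differed from untreated at 6 days off. Of 76 ribosome biogenesis genes 7 were higher and 7 lower, 18.4% against the 11.7% of all probe sets, and Npm1, the nucleolar chaperone nucleophosmin, was higher by 1.33 ± 0.28. Of 61 mitochondrial ribosomal proteins 8 were higher and 8 lower, 26.2%. Of the 19 other TOP genes 2 were higher and 1 lower, 15.8%, with Btf3, a factor that binds nascent proteins, higher by 1.24 ± 0.27.

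Probe sets of 1 gene did not always move alike, which bears on how far a single value can be read. Of the 33 genes 10 had several probe sets, with 14 beyond the first. Rps28, a small-subunit protein at the exit of the mRNA channel, had 3. At 21 days against untreated, 98085_f_at, the brightest, differed by 0.10, with 13.64, 13.66 and 13.67 against 13.57, 13.46 and 13.63. The probe set 100758_at rose by 0.90 ± 0.27 (adjusted p = 0.0310 by limma), with 12.75, 12.81 and 13.30 against 12.12, 12.31 and 11.72. The third, 98086_r_at, fell by 0.60 ± 0.15 (adjusted p = 0.00953 by limma), with 6.83, 6.89 and 6.75 against 7.29, 7.79 and 7.18. In all 3 the groups did not overlap, with 98085_f_at and 100758_at higher at 21 days and 98086_r_at lower. For 98085_f_at the gap was from 13.63 to 13.64 and the change was not called. The called changes of the others went in opposite directions, so no direction for Rps28 follows from these arrays.

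**Figure D5:**
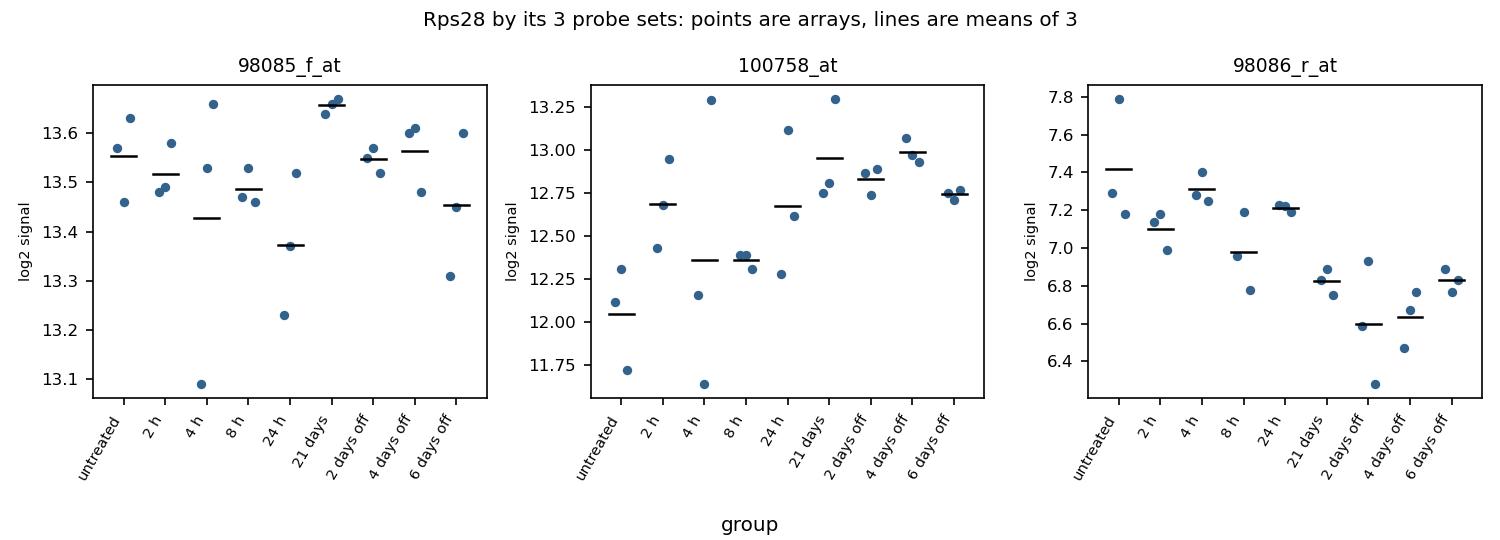
Log2 signal of Rps28 by its 3 probe sets on each of the 27 arrays (points), with group means (lines) and separate axes that do not start at 0. From untreated to 21 days the means differ by 0.10, 0.90 and -0.60 from left to right.

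Second probe sets of other members differed as well. Rpl22 by its second probe set, 92856_at, rose by 0.38 ± 0.11 from 24 h to 21 days (adjusted p = 0.0165 by limma), while the brighter one gave -0.31 without passing. The same second probe set fell by 0.43 ± 0.11 at 4 days off (adjusted p = 0.0300 by limma), where the brighter one gave 0.47 without passing. Rpl7 by 97697_at rose by 0.31 ± 0.11 from 24 h to 21 days (adjusted p = 0.0499 by limma), where its brightest probe set was not called. One annotation was in doubt: the brightest probe set of Rps24, 97696_r_at, shares its source transcript in the annotation with the brightest of Rpl7, 97695_s_at. Neither gene was called by its brightest probe set in any comparison.

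Over the 11 comparisons 13 of the 33 members were called at least once and 20 never, with 15 calls in all, and Rps14 and Rpsa were called in 2 comparisons each. By their brightest probe sets 26 members had every interval in all 11 comparisons within 1 log2 unit of 0. The largest change by these probe sets was 1.05 in size, for Rpl10a and Rps4l from 24 h to 21 days. Rplp0, Rps19, Rpl22 and Rpl39l, the last a paralogue of Rpl39 known from testis, were called in none by their brightest probe sets. Comparisons that share the untreated, 24 h or 21-day arrays are not independent of each other.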

How the data were processed

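The deposited table holds log2 values of 12488 probe sets on 27 one-colour arrays, made by the authors with RMA (per the submitters' processing notes), of which neither version nor settings are given in the sources used here. RNA was linearly amplified in 2 rounds before hybridisation, per the labels. The 66 control probe sets were left out of tests. Of the other 12422 probe sets 10833 had 1 symbol in the platform annotation, 396 several and 1193 none. Coordinates and promoter windows are those of RefSeq GRCm38.p6, matched by Entrez ID.

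All 12422 probe sets were fitted with 9 group means over 27 arrays (18 residual degrees of freedom) in limma 3.58.1 under R 4.3.3, two-sided, with Benjamini-Hochberg adjustment within each of 11 comparisons and a threshold of 0.05. The fit was tested on simulated data. Errors are SE for changes and SD for levels, intervals are 95%, and the number of arrays limits the precision.

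The members and the gene lists were chosen with earlier results of these data known. Named are all called members, the 3 largest differences each way, a panel of members, and the largest called changes of the other lists; the rest of the members are given by counts. Alternatives were normalisation, a filter that drops the lowest 40% of probe sets, the choice of probe set, variance settings, covariates, 6 arrays alone, a replicate block and each array left out.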

Additional observations from a re-analysis of the deposited data

How the results depend on the processing

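Across 694 recomputed values 568 kept their direction and side of the threshold, 92 single-gene calls were lost, 33 counts moved by over 1.5 times and 1 direction reversed; no median over the members moved. The counts of 0 at 2, 4, 8 and 24 h and from 8 h to 24 h did not move in any setting run. From untreated to 21 days the count was 2, and became 4 with array weights and 1 on the 6 arrays alone. It ran from 1 to 3 with 1 array left out. The single exclusions that moved it by over 1.5 times were those of each untreated array and of 21 days replicate 1. Without untreated replicate 1 or 2 both Rpl13a and Rpsa lost their calls and the 1 call left was of another member; without 21 days replicate 2 Rpsa and without 21 days replicate 3 Rpl13a lost its call, while the count was 3. From 24 h to 21 days the count was 6, became 0 with acinar and leukocyte covariates, and ran from 1 without 24 h replicate 3 to 7 with 1 array left out, with 3 without 21 days replicate 2. From 21 days to 4 days off the count was 3. It became 1 with array medians subtracted, with the lowest 40% left out, with the Gapdh covariate or over members above the bacterial controls, 0 with quantile normalisation, on the 6 arrays alone or without the leukocyte-rich arrays, and 6 with array weights. It ran from 0 to 4 with 1 array left out, with 0 without any array of 4 days off or without 21 days replicate 1 or 2. Array weights also gave 2 calls at 2 days off and 1 at 6 days off against 21 days. From untreated to 6 days off the count was 4, became 2 with array medians subtracted, with acinar and leukocyte covariates or without the leukocyte-rich arrays, 1 with the Gapdh covariate and 0 on the 6 arrays alone, and ran from 1 to 3 with 1 array left out: 1 without untreated replicate 1 or 6 days off replicate 2, 2 without untreated replicate 2 or 6 days off replicate 1. The fall of Rps4l from 24 h to 21 days became 0.37 (adjusted p = 0.0882 by limma) with plain _at probe sets only, because that setting reads its other probe set; for the other settings the cause was not tested.

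The replicate numbers did not pair the arrays: same-numbered arrays had a median residual correlation of 0.02 over 108 pairs, from -0.46 to 0.51. With a replicate block the count was 3 from untreated to 21 days, 6 from 24 h to 21 days and 2 from 21 days to 4 days off, where Rps29 was lost, and no other call of a member was lost. Leaving out the leukocyte-rich arrays and counting over members above the bacterial controls were chosen after seeing the data. Signals near the bacterial controls limit what the 7 dim members can show.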

Other observations

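The 38 probe sets whose several symbols include a ribosomal protein were measured beside the members and name no gene. At 2, 4, 8 and 24 h against untreated 0 of them passed an adjusted p of 0.05 by limma. From untreated to 21 days 1 was higher and 2 lower, 7.89% against 14.6% of all probe sets, with a median of -0.03. From 24 h to 21 days 2 were higher and 5 lower, 18.4% against 20.8%, with a median of -0.03. From untreated to 6 days off 1 was higher and 6 lower, 18.4% against 11.7%, with a median of -0.08.

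Ribosomal proteins named outside the Rpl and Rps series were measured for 2 genes. Rpl7l1, a nuclear relative of Rpl7 that acts in ribosome assembly, fell by 0.79 ± 0.24 from untreated to 21 days. Fau, which encodes a ubiquitin-like protein fused to the small-subunit protein S30, was called in no comparison.

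Other lists of the translation machinery were counted beside these. Of 19 other TOP genes 1 rose and 5 fell from untreated to 21 days, 31.6% against 14.6% of all probe sets, with Btf3 higher by 0.91 ± 0.27 and Eef2, the factor that moves the ribosome along the mRNA, lower at -0.77 ± 0.19. Of 61 mitochondrial ribosomal proteins 3 rose and 10 fell in the same comparison, 21.3%. At 4 days off 9 of them rose and 0 fell against 21 days, 14.8% against 6.01% of all probe sets, among them Mrpl2 by 1.18 ± 0.20.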
